A study of Homo sapiens with 6 samples.

Results

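Complement genes and their regulators were examined in Caki-1 cells with and without VHL. The set comprises 9 genes of the 60708 in the deposited table, chosen by symbol: C3, CFB, C1R, C1S, CFI, SERPING1, CD46, CD55 and CD59. Caki-1 is an established human line of clear cell renal cell carcinoma, and its RNA was sequenced in bulk from 3 VC and 3 VHL-KO samples. VC cells had the genotype WT and were infected with the Lenti-CRISPR vector only, while VHL-KO cells were infected with Lenti-CRISPR carrying sgRNA-VHL. The VHL-KO cells were a clonal line picked after puromycin selection, so that loss of VHL and properties of the clone cannot be told apart. Counts on genes totalled 22628246 in the shallowest and 34881739 in the deepest sample. Nothing states that replicates came from separate cultures, so the p-values measure only the spread between these samples, which may be technical.

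Complement is a cascade of plasma and cell-surface proteins that tags targets, recruits leukocytes and can form a lytic pore in membranes. The first proteases of the classical pathway are C1r and C1s, the alternative pathway uses factor B, and all pathways meet at the cleavage of C3. Soluble inhibitors and membrane proteins hold the cascade back on the body's own cells, and besides the liver, epithelial cells such as those of the renal tubule make some of these proteins.

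The label of the cells was first compared with marker genes. Of 6 renal epithelial markers, 5 were detected, and their summed level was 1496, 1701 and 1347 counts per 1000000 (CPM, normalized by edgeR's TMM method) in the VC replicates and 2211, 2142 and 2147 in the VHL-KO replicates. KRT8, a keratin of simple epithelia, was the most abundant of them, PAX8, a transcription factor of the renal lineage, had 428 ± 38.9 CPM in VC and 614 ± 14.2 CPM in VHL-KO cells (± gives the SD around the mean, n = 3 per group, here and in later values), and PAX2 was at 0. EPCAM, an epithelial adhesion gene, had 1.33 ± 0.299 CPM in VC and 0.491 ± 0.263 CPM in VHL-KO cells, opposite in direction to the sum. The detection limit for a gene with 0 counts is the level of 3 counts, 0.079 to 0.141 CPM depending on the sample. This limit covers counting error only. Of other cell types that make complement proteins, hepatocytes were represented by 3 genes, with ALB the most abundant and TTR at 0. They summed to 0.0879, 0.0673 and 0.0263 CPM in the VC replicates and 0.15, 0.324 and 0.375 in the VHL-KO replicates. The 6 leukocyte markers summed to 2.23, 2.69 and 1.90 CPM in the VC replicates and 4.45, 5.61 and 4.13 in the VHL-KO replicates. CD14 was the most abundant at 1.56 ± 0.231 and 4.31 ± 0.852 CPM, followed in VC cells by CSF1R at 0.654 ± 0.220 CPM (0, 6 and 5 counts in the VHL-KO replicates), while PTPRC, which marks all leukocytes, had at most 1 count per sample and CD3E had 0. The 3 endothelial markers, led by PECAM1, summed to 0.117, 0.168 and 0 CPM in the VC replicates and 0.711, 0.324 and 0.469 in the VHL-KO replicates. The 4 fibroblast markers summed to between 37.2 and 47.3 CPM in VC samples and between 25.5 and 29.8 in VHL-KO samples, most of it COL1A1 and in VC cells also PDGFRB (8.90 ± 1.61 CPM), with COL3A1 at 0 and DCN at no more than 2 counts. In bulk RNA, a change in the number of cells that express a gene and a change in RNA per cell cannot be told apart.

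VHL, the edited gene, encodes the substrate-recognition subunit of the ubiquitin ligase that targets HIFα. Its level was 42.6, 37.8 and 40.1 CPM in the VC replicates and 34.8, 30.4 and 30.5 CPM in the VHL-KO replicates. The groups did not overlap, but VHL mRNA was still present in every VHL-KO sample. The log2 fold change (log2FC) of VHL-KO against VC was -0.33 (standard error, SE, 0.11, adjusted p = 0.0109). Unless stated otherwise, adjusted p-values come from the quasi-likelihood test of edgeR, adjusted by the Benjamini-Hochberg method over 17401 genes, while those of an alternative are adjusted over the genes tested in it, and ranges over all alternatives include the Wald test of DESeq2. It lost significance without VC replicate 1 (-0.28) or VHL-KO replicate 2 (-0.30), with upper quartile factors (-0.22) and with offsets for GC content and length (-0.13 with or without the replicate block), with adjusted p-values between 2.9e-04 and 0.198 over all alternatives. Counts per gene do not show the edited bases themselves.

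A gene was tested if 1 sample or more held 10 reads of it. Of the genes tested, 59.7% differed between the groups at an adjusted p under 0.05, 28.5% with a higher and 31.2% with a lower level in VHL-KO cells. Of the renal epithelial markers, PAX8, KRT8, KRT18 and CDH16 were called higher and EPCAM was called lower (-1.42, adjusted p = 0.00477). CDH16, the gene of a kidney-specific cadherin, had the largest change of these, from 6.76 ± 0.988 to 72.2 ± 1.78 CPM (log2FC 3.42, adjusted p = 6.9e-17), and the call of KRT18 (0.37, adjusted p = 0.00174) was lost with library size alone (0.18, adjusted p = 0.0724, in a range of 5.0e-07 to 0.0724). Of the other markers, CD14 was higher (1.47, adjusted p = 7.0e-06), COL1A1 (-0.42, adjusted p = 0.00424) and PDGFRB (-1.94, adjusted p = 7.7e-09) were lower, and CSF1R was lower (-1.97, adjusted p = 0.018) but not without VC replicate 2 (-1.65, adjusted p = 0.0799) or VHL-KO replicate 1 (-1.32, adjusted p = 0.0759), in a range of 0.00378 to 0.0799. PECAM1 was higher (2.73, adjusted p = 0.0117) but not without VC replicate 3 (2.11, adjusted p = 0.0648), and was at 4.57 without VC replicate 2, which held 5 of its 6 VC counts, in a range of 0.00214 to 0.0648. CSF1R entered the test through the VC samples alone and PECAM1 through the VHL-KO samples alone, in each case the group where it is high. The part of these markers in the complement values was not tested.

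Of the 9 complement genes, 8 passed the filter on reads. Of these, 6 were higher (C3, CFB, C1R, C1S, CFI and CD59), 1 was lower (CD46) and 1 did not pass the threshold (CD55). CFB and CFI passed the filter only through the VHL-KO samples, where they are high, so these counts include genes that entered for being high and support nothing about the set. Of the 6 genes with 10 reads in a sample of each group, 4 were higher, 1 was lower and 1 did not pass the threshold, beside 62.3% called among all such genes. Their median log2FC was 1.45, against -0.03 for all such genes. It was 2.64 over the 8 genes, against -0.01 for all tested genes, and 1.81 over all 9 with SERPING1 placed at its lower bound. The medians over 8 and 9 genes include CFB and CFI, which entered for being high. The set was chosen with earlier results of these data known, so its medians are a description and support nothing about it. VC and VHL-KO samples were fully separated for 4 of the 6 genes with 10 reads in a sample of each group. This share is like the 66.6% of all such genes. Separation was also full for 6 of the 8, beside 64.7% of all tested genes.

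**Figure D1:**
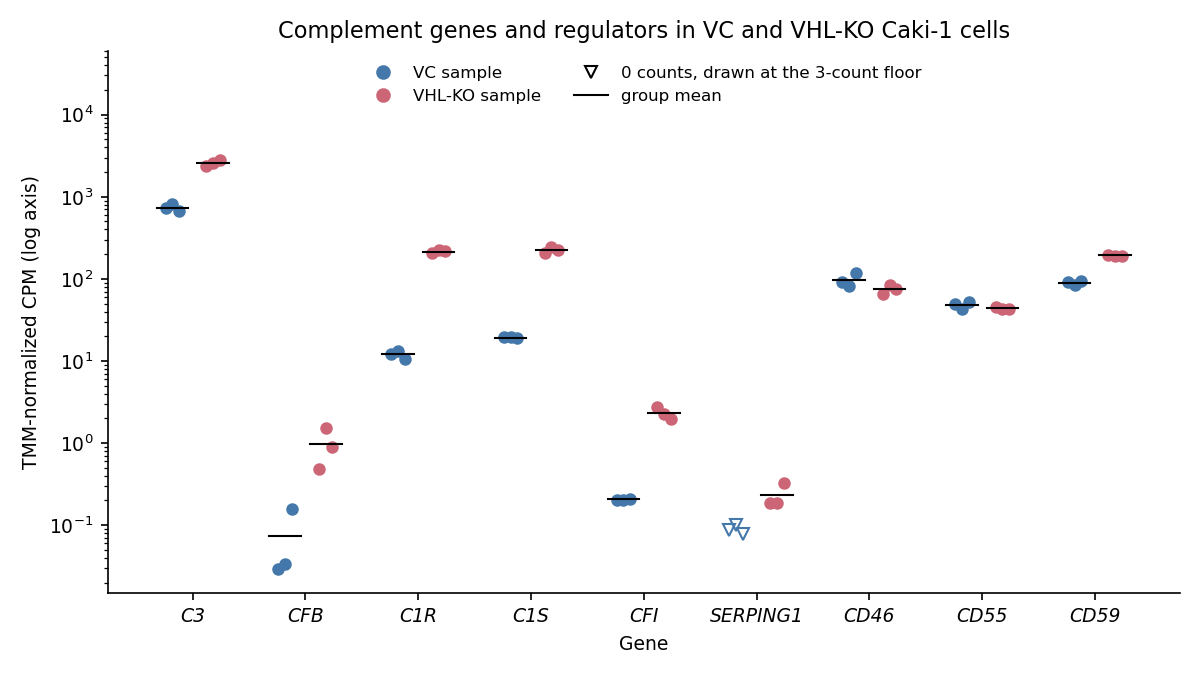
TMM-normalized CPM (log axis) of the 9 complement genes in each of 3 VC and 3 VHL-KO samples, with group means as black lines and samples at 0 counts drawn at the level of 3 counts. C3, CFB, C1R, C1S, CFI and CD59 lie higher in each VHL-KO sample than in any VC sample, SERPING1 has counts only in VHL-KO samples, and the groups overlap for CD46 and CD55.

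C3, the protein that every pathway cleaves to tag surfaces, was the most abundant gene of the set. Its gene lies on chromosome 19 from 6677704 to 6730562 on the minus strand (GRCh38, GENCODE release 44, as for all positions of genes here). C3 had 722, 822 and 671 CPM in the VC replicates and 2349, 2552 and 2838 CPM in the VHL-KO replicates. Each VHL-KO sample lay above each VC sample by a gap much wider than the spread within either group. The log2FC was 1.81 (SE 0.10, adjusted p = 7.6e-14), with group means of 738 ± 77.1 and 2579 ± 246 CPM. C3 took 0.0775%, 0.0858% and 0.0730% of all counts in VC samples, and 0.215%, 0.241% and 0.267% in VHL-KO samples. It stood between place 140 and 166 among genes ordered by counts in VC samples and between place 34 and 46 in VHL-KO samples, which placed this plasma protein among the abundant transcripts of both groups. Another annotated gene on the same strand shares 11.7% of its exonic bases.

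Levels of different genes were compared per kilobase of exon. In VC cells, C3 was highest at 63.8 ± 6.66 CPM per kb, followed by CD59 at 8.54 ± 0.475, CD46 at 6.26 ± 1.17 and CD55 at 4.69 ± 0.498. C1S (2.33 ± 0.0493) and C1R (2.07 ± 0.219) came next, while CFI (0.0387 ± 0.00084) and CFB (0.0139 ± 0.0138) were near the detection limit. Mean ± SD overlapped between CD46 and CD55 and between C1S and C1R. In VHL-KO cells the order changed: C3 remained highest at 223 ± 21.2 CPM per kb, but C1R (37.1 ± 1.37) and C1S (27.4 ± 2.37) stood above CD59 (18.3 ± 0.406). CD46 (4.84 ± 0.607) and CD55 (4.30 ± 0.115) followed and did not differ beyond their spread, ahead of CFI (0.437 ± 0.0722), CFB (0.182 ± 0.0990) and SERPING1 (0.0323 ± 0.0113). The membrane inhibitors CD46 and CD55 were thus above both C1 proteases per kb in VC cells and below them in VHL-KO cells.

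The proteases of the classical pathway had the steepest well-measured rises. C1R encodes C1r, which activates itself and then cleaves C1s, and C1S encodes C1s, which cleaves C4 and C2. C1R had 12.2, 13.2 and 10.6 CPM in the VC replicates and 207, 222 and 217 CPM in the VHL-KO replicates. C1S had 19.4, 19.6 and 18.8 CPM in the VC replicates and 207, 247 and 227 CPM in the VHL-KO replicates. For both genes the samples of each group sat close together and the groups were far apart. The log2FC was 4.17 for C1R (SE 0.11, adjusted p = 1.4e-19) and 3.56 for C1S (SE 0.10, adjusted p = 8.9e-19), and C1R took place 104 among the 17401 tested genes ordered by log2FC. Their summed level rose from 31.3 ± 1.68 to 442 ± 27.5 CPM.

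The 2 genes were also compared with each other. The ratio of C1R to C1S counts was 0.627, 0.671 and 0.565 in the VC replicates and 0.997, 0.901 and 0.955 in the VHL-KO replicates, without overlap. The difference in the log2 ratio was 0.62 (p = 0.1 by an exact permutation test, two-sided, for which 3 samples against 3 allow no smaller value, and 0.133 after Benjamini-Hochberg adjustment over the 4 ratios computed), so the test did not pass the threshold. C1R has 55.3% GC and C1S 46.5%, and with offsets for GC content and length the difference was smaller, at 0.30. Reads on exons that C1R shares with its neighbour C1RL, 11.6% of its exonic bases, may have been assigned to either gene or left out.

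C1R and C1S are neighbours on chromosome 12, at 7080214 to 7092540 on the minus strand and 6988259 to 7071032 on the plus strand. Genes within 100 kb of either were compared, a step chosen after the values of the pair were known. Of 15 such genes that could be tested, 8 were higher, 1 was lower and 6 did not pass the threshold. In either direction 9 of 15 were called, a share like the 59.7% of all tested genes. Over all tested genes, 28.5% were called higher and 31.2% lower. The calls near the pair thus lay more on the higher side, which was not tested. ENO2, the gene of the glycolytic enzyme gamma enolase, rose as steeply as the pair, from 17.7 ± 1.13 to 341 ± 13.3 CPM (log2FC 4.27, adjusted p = 3.1e-20). C1RL, a protease gene related to C1R, rose from 19.6 ± 0.988 to 41.9 ± 0.669 CPM (log2FC 1.10, adjusted p = 5.6e-09), and CLSTN3, a calsyntenin, rose from 25.6 ± 3.31 to 76.2 ± 5.67 CPM (1.58, adjusted p = 1.5e-11). The genes in between did not move as a block. LPCAT3, whose annotated span overlaps that of C1S on the other strand, had 50.5 ± 4.21 CPM in VC cells and a log2FC of -0.01 (adjusted p = 0.916), and PHB2, between ENO2 and C1S, was lower (log2FC -0.37, adjusted p = 7.5e-04).

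**Figure D2:**
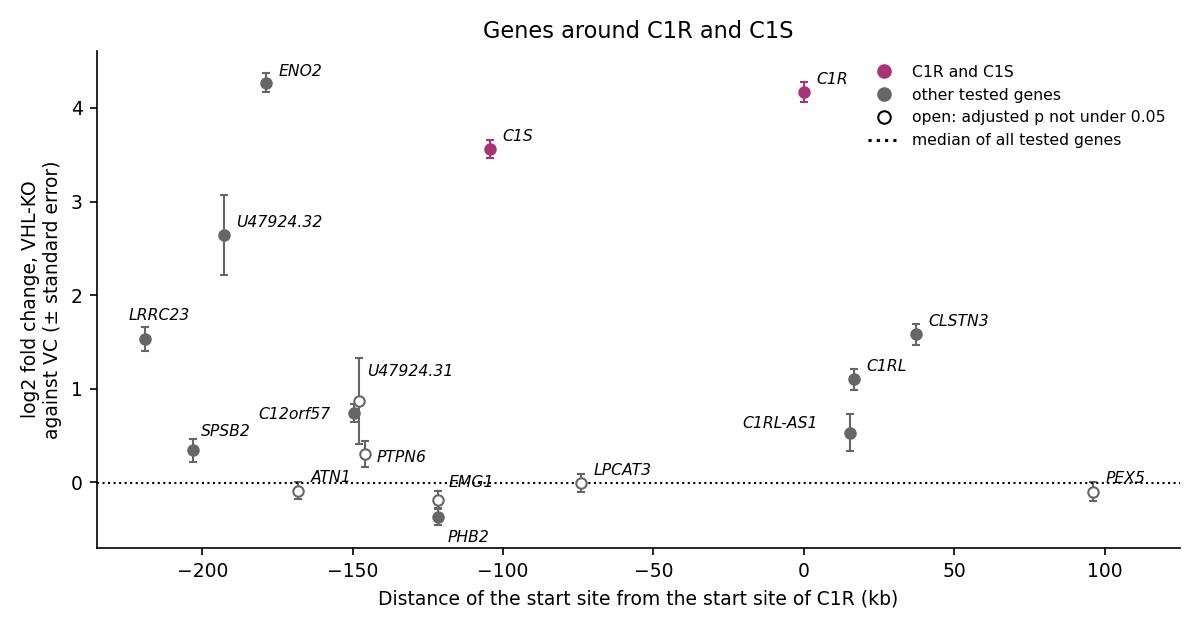
Log2 fold change between VHL-KO and VC cells (± standard error) of the tested genes within 100 kb of C1R or C1S, against the distance of each start site from that of C1R in kb. ENO2, C1S and C1R stand near 4 on the vertical axis, with genes near 0 between them, and open circles mark genes whose adjusted p was not under 0.05.

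CFB encodes factor B, the protease precursor of the alternative pathway, and lies on chromosome 6 from 31945650 to 31952086. The VC replicates held 1, 1 and 6 reads of it, and the VHL-KO replicates 13, 33 and 19. Every VHL-KO sample was above every VC sample, at a level that stayed near 1 CPM. The log2FC was 3.56 (SE 0.70, adjusted p = 1.1e-04), and it was 4.76 without VC replicate 3, which held 6 of the 8 VC counts, and 3.07 without VHL-KO replicate 2. C2 and another annotated gene share 42.8% of its exonic bases on the same strand. C2 itself, the classical-pathway counterpart of factor B, had 0.284 ± 0.162 CPM in VC and 0.305 ± 0.134 CPM in VHL-KO cells.

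CFI encodes factor I, the plasma protease that degrades C3b and C4b with the help of cofactors such as CD46. It lies on chromosome 4 from 109731008 to 109802150 on the minus strand and was hit by 7, 6 and 8 reads in the VC replicates and by 73, 49 and 42 in the VHL-KO replicates. The 3 VC samples were almost equal and all VHL-KO samples were well above them. The log2FC was 3.47 (SE 0.38, adjusted p = 2.3e-08), with group means of 0.206 ± 0.00446 and 2.32 ± 0.384 CPM. Of the exonic bases of CFI, 29.4% lie in another annotated gene on the same strand.

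SERPING1 encodes C1 inhibitor, the serpin that blocks C1r and C1s, and lies on chromosome 11 from 57597387 to 57619171. It had 0 counts in all 3 VC samples and 5, 4 and 7 counts in VHL-KO samples, too few to pass the filter. Against a floor of 3 counts in each VC library, the mean of the VHL-KO samples was at least 2.62-fold higher. This bound leaves out counting error in the VHL-KO samples. With 0.0323 ± 0.0113 CPM per kb, the mRNA of this inhibitor stayed far below the mRNAs of its target proteases in the cells in which C1R and C1S rose.

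RefSeq promoters of genes of the set (GRCh38.p14, 250 bases before to 50 after each transcription start) were searched on both strands for short motifs. Promoters were on hand for 6 of the 9 genes, and those of C3, C1S and SERPING1 were not analysed here. The motifs were ACGTG and GCGTG, core letters of hypoxia response elements, TTCNNNGAA, the STAT-type GAS element, GAAANNGAA, an IRF-type element, and the NF-kB consensus. Of 35116 promoters of this length, 21.4% held ACGTG, 36.5% GCGTG, 7.66% TTCNNNGAA, 8.11% GAAANNGAA and 11.3% the NF-kB consensus. Sequences are given 5′ to 3′ with matches in capitals: CFB at chr6:31945845-31946144 (+ strand), the start sites of C1R at chr12:7092396-7092695 (− strand) and chr12:7091844-7092143 (− strand), CFI at chr4:109801950-109802249 (− strand) and CD46 at chr1:207751788-207752087 (+ strand). CD46 was called lower, but its groups overlapped and its log2FC was 0.15 with the offsets for GC content and length.
CFB: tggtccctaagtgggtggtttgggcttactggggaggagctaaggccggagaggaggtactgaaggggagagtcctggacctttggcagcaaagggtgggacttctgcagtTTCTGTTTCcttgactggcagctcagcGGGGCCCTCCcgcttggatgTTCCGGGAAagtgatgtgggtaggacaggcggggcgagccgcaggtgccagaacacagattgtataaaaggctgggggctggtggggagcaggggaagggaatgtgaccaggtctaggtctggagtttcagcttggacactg
C1R start 1: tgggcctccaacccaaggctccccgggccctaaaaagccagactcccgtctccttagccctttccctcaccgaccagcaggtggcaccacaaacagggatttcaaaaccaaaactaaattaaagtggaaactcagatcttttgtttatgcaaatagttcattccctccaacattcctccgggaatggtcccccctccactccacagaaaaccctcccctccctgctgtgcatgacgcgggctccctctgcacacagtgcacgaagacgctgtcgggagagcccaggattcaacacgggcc
C1R start 2: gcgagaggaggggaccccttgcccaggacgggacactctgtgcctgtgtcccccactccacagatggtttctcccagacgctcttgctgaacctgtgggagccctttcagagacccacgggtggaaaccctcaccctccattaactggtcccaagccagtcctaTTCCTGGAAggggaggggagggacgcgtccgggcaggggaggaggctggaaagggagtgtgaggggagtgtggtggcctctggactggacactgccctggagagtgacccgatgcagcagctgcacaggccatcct
CFI: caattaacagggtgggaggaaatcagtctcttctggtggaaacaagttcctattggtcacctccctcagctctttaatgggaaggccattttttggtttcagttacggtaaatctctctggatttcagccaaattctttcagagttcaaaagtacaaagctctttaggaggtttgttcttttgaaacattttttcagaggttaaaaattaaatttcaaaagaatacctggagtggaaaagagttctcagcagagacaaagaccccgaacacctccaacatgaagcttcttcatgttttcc
CD46 start 1: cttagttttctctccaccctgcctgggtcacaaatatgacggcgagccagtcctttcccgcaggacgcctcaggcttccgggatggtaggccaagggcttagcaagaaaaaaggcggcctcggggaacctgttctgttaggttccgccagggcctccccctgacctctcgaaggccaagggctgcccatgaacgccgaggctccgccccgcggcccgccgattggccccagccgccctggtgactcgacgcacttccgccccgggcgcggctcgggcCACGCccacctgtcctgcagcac

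The CFB promoter held an IRF-type match at position -139, an NF-kB match at -112 and a STAT-type match at -92 (first base of the match, with the transcription start at 0), the last of these on both strands because the motif is its own reverse complement. The downstream start of C1R had a STAT-type match at -86, and none of the motifs was in the window of its upstream start or in that of CFI. CD46 had GCGTG at 27, on the strand opposite to the one shown. Neither ACGTG nor GCGTG was found in the windows of CFB, C1R or CFI. Among the promoters not shown, that of CD55 had no match, and those of the 4 CD59 starts held 1 STAT-type site, which lies in the overlapping windows of 2 starts, and ACGTG at another start. These matches are letters in a window and do not show that a factor binds there.

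On the cell surface, CD46 and CD55 limit the enzymes that cleave C3, and CD59 blocks assembly of the membrane attack complex. CD46, a cofactor for factor I, lies on chromosome 1 from 207752037 to 207795513, and had 92.6, 81.4 and 117 CPM in the VC replicates and 65.1, 83.9 and 76.0 CPM in the VHL-KO replicates. The groups overlapped, with VHL-KO replicate 2 above VC replicate 2. The log2FC was -0.37 (SE 0.12, adjusted p = 0.00867). The call was lost without VC replicate 3 (-0.20, adjusted p = 0.0957), without VHL-KO replicate 1 (-0.27, adjusted p = 0.0932) and with upper quartile factors (-0.26, adjusted p = 0.0538), in a range of 9.0e-05 to 0.0967 over all alternatives. Its antisense neighbour MIR29B2CHG, which rose by 2.72 on the log2 scale, covers 5.14% of its exonic bases, and without a stated strand setting reads from the pair cannot be told apart there.

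CD55, also called decay-accelerating factor, lies on chromosome 1 from 207321519 to 207386804. It had 49.0, 42.6 and 52.7 CPM in the VC replicates and 45.4, 43.5 and 43.3 CPM in the VHL-KO replicates. All VHL-KO values fell inside the range of the VC values, and the log2FC of -0.13 did not pass the threshold (SE 0.11, adjusted p = 0.305). CD59, on chromosome 11 from 33703010 to 33736479 on the minus strand, had 92.7, 84.4 and 93.5 CPM in the VC replicates and 198, 191 and 189 CPM in the VHL-KO replicates. It was higher in each VHL-KO sample, with a log2FC of 1.10 (SE 0.09, adjusted p = 1.8e-10). The 3 membrane regulators together reached 235 ± 27.3 CPM in VC and 312 ± 5.78 CPM in VHL-KO cells.

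CD46 and CD55 are both rich in A and T, at 37.7% and 40.8% GC, and expression changes in these samples followed GC content. The median log2FC was -0.45 for the 2889 tested genes under 40% GC, -0.17 for 6946 genes from 40 to 50%, 0.20 for 5211 genes from 50 to 60% and 0.50 for 2309 genes at 60% or more. With offsets per library that remove this trend and that of length, CD46 had a log2FC of 0.15 (adjusted p = 0.0967) and CD55 one of 0.30 (adjusted p = 0.00119, in a range of 5.7e-04 to 0.922 over all alternatives). The sign of both thus depended on this step, which also removes biological change that follows GC content. CD55 was also called lower with no factor beyond library size (-0.32, adjusted p = 0.0135), a scaling that moves the median of all genes to -0.20, near the value of CD55. The other tested genes of the set kept their direction and their call with the offsets. They were at 1.59 for C3, 4.03 for C1R, 3.73 for C1S, 3.52 for CFB, 3.94 for CFI and 1.31 for CD59. Of these, CFB and CFI entered the test through the VHL-KO samples alone. Rises made up 47.7% of all calls under TMM, 55.0% under upper quartile factors and 35.8% when library size alone was used.

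**Figure D3:**
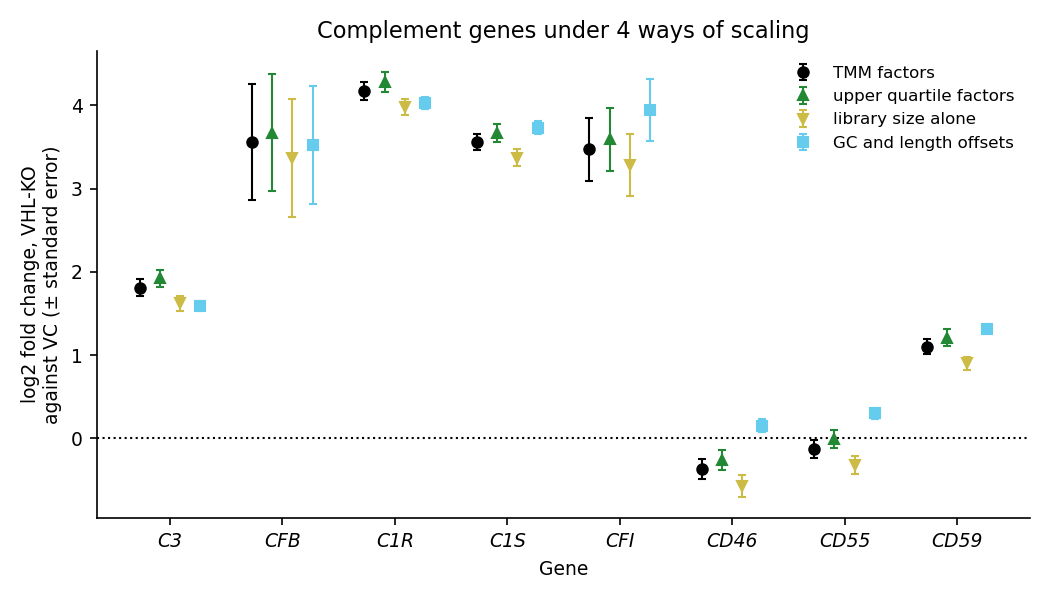
Log2 fold change between VHL-KO and VC cells (± standard error) of the 8 tested complement genes, with TMM factors, upper quartile factors, library size alone and offsets for GC content and length. C3, CFB, C1R, C1S, CFI and CD59 stay above 0 under each of these 4 scalings, whereas CD46 and CD55 lie below 0 with the factors and library size and above 0 with the offsets.

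Ratios of counts within a sample do not change with a factor per library, but they do change with the GC and length offsets, which differ between genes. The ratio of CD59 to CD46 was 1.00, 1.04 and 0.799 in the VC replicates and 3.03, 2.28 and 2.49 in the VHL-KO replicates. That of CD59 to CD55 was 1.89, 1.98 and 1.77 in the VC replicates and 4.35, 4.40 and 4.37 in the VHL-KO replicates. Neither ratio overlapped between the groups, with log2 differences of 1.46 and 1.22 (exact permutation p = 0.1 each, 0.133 after adjustment over the 4 ratios), which became 1.16 and 1.01 with the offsets. The ratio of CD55 to CD46 went from 0.501 ± 0.0437 to 0.595 ± 0.0923, with overlap (exact permutation p = 0.3). None of these ratios passed a threshold of 0.05, which 3 samples against 3 cannot reach. Of the membrane regulators, CD59, which acts at the last step of the cascade, was the only one called higher under every alternative.

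**Figure D4:**
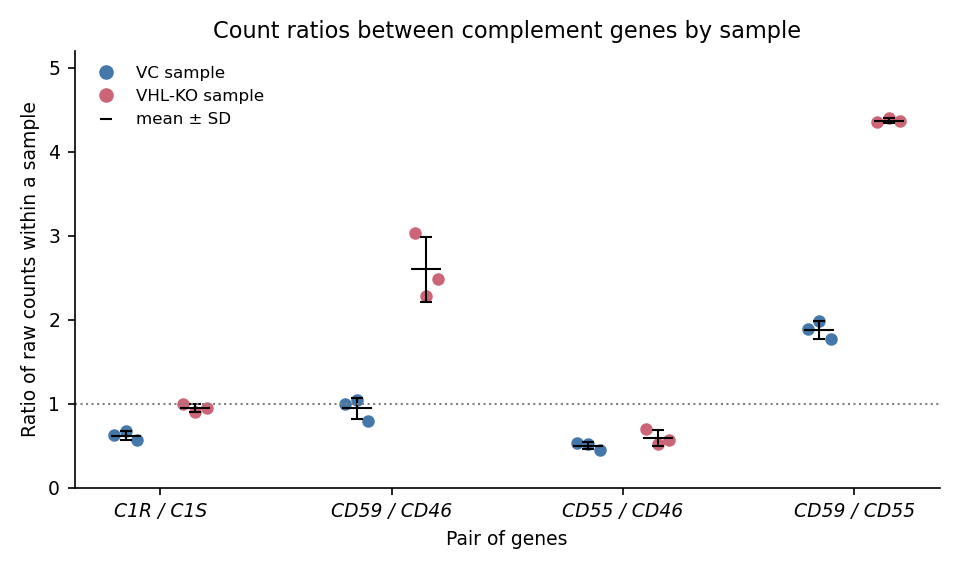
Ratios of raw counts between pairs of complement genes within each of 3 VC and 3 VHL-KO samples, with mean ± SD in black and a dotted line at a ratio of 1. The ratios of C1R to C1S, CD59 to CD46 and CD59 to CD55 are higher in each VHL-KO sample than in any VC sample, and that of CD55 to CD46 overlaps.

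Of 44 other complement genes, 18 passed the filter, 5 of which were higher, 3 were lower and 10 did not pass the threshold, so that 8 of 18 were called, beside 59.7% of all tested genes. VTN, ITGAX and C8G passed it only through VHL-KO samples and COLEC10, MASP2 and CR2 only through VC samples, and without these 6 genes 3 were higher, 2 were lower and 7 did not pass the threshold (41.7% called, beside 62.3% of all genes with 10 reads in a sample of each group). The median log2FC was 0.06 over the 18 genes and -0.08 over the 12, and 11 of the 44 had 0 counts in all samples, including the C1q genes C1QA, C1QB and C1QC, whose product carries C1r and C1s. Among the soluble regulators, 2 of 3 tested genes were higher, CLU and VTN, of which VTN entered through the VHL-KO samples alone. CLU, the gene of clusterin, a chaperone that binds the terminal complex, rose from 109 ± 17.2 to 861 ± 46.7 CPM (log2FC 2.98, SE 0.11, adjusted p = 5.9e-17). VTN, which encodes vitronectin, had 5, 0 and 1 reads in the VC replicates and 52, 29 and 32 in the VHL-KO replicates (log2FC 4.67, adjusted p = 3.7e-07, and 6.39 without VC replicate 1, a fitted value that then rests on 1 VC count). C4BPB did not pass the threshold.

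Upstream components were sparse. Of 15 classical and lectin pathway genes, 4 could be tested, of which C1RL was higher and the collectin COLEC10 was lower, at 0.919 ± 0.170 CPM in VC and 0.122 ± 0.113 CPM in VHL-KO cells (log2FC -2.81, SE 0.62, adjusted p = 3.8e-04, and -3.64 without VHL-KO replicate 1), though it entered the test through the VC samples alone. C2 and MASP2 did not pass the threshold. MASP1, which encodes lectin-pathway proteases, had 0 counts in each VC replicate and 2, 8 and 9 counts in the VHL-KO replicates. Against a floor of 3 counts in each VC library, the mean of the VHL-KO samples was at least 3.24-fold higher. VHL-KO replicate 1 was itself under 3 counts, so the bound does not hold for each VHL-KO sample. C4A and C4B, near-identical copies between which unique reads are hard to place, had 11 and 1 counts over the VC samples and 23 and 21 over the VHL-KO samples. Of the alternative pathway, CFD, the gene of factor D that cleaves factor B, rose from 0.493 ± 0.236 to 1.31 ± 0.163 CPM (log2FC 1.42, SE 0.41, adjusted p = 0.00456), but not with the GC and length offsets (0.77, adjusted p = 0.103, and 0.81 with the replicate block added, adjusted p = 0.101, in a range of 0.00216 to 0.103), while CFP, which encodes properdin, did not pass the threshold.

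The terminal pathway and the receptors gave little sign of a shared direction. Of 7 terminal genes, C5 (-0.82, adjusted p = 0.0663) and C8G (1.29, adjusted p = 0.0936) could be tested and did not pass the threshold. C5 passed it in 5 settings: with the replicate block (-0.89, adjusted p = 0.0364), library size alone (-1.03, adjusted p = 0.0314), no filter beyond 1 read (-0.87, adjusted p = 0.0244), and without VC replicate 2 (-0.96, adjusted p = 0.0392) or VHL-KO replicate 1 (-1.35, adjusted p = 0.0125). C8G passed it without VHL-KO replicate 1 (1.68, adjusted p = 0.0313), and over all alternatives the adjusted p ranged from 0.0125 to 0.457 for C5 and from 0.0313 to 0.624 for C8G. C6, C7 and C9 had at most 1 count in all samples together. Of 10 receptor genes, 7 were tested. ITGB2, the shared beta chain of complement receptors 3 and 4, fell from 1.40 ± 0.185 to 0.523 ± 0.0811 CPM (log2FC -1.42, adjusted p = 0.00178), and ITGAX, an alpha chain, rose from 0.175 ± 0.0327 to 0.606 ± 0.202 CPM (log2FC 1.75, adjusted p = 0.0174) after entering the test through the VHL-KO samples alone, though not without VC replicate 1 (1.64, adjusted p = 0.0676) or VHL-KO replicate 2 (1.57, adjusted p = 0.0538), in a range of 0.00963 to 0.0676. C1QBP, which encodes a mitochondrial protein that also binds the globular heads of C1q, fell from 194 ± 5.94 to 78.2 ± 4.78 CPM (log2FC -1.31, adjusted p = 1.1e-11). The receptors C3AR1, C5AR1, CR2 and ITGAM did not pass the threshold, and none of the 4 other membrane regulators had enough reads to be tested.

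**Figure D5:**
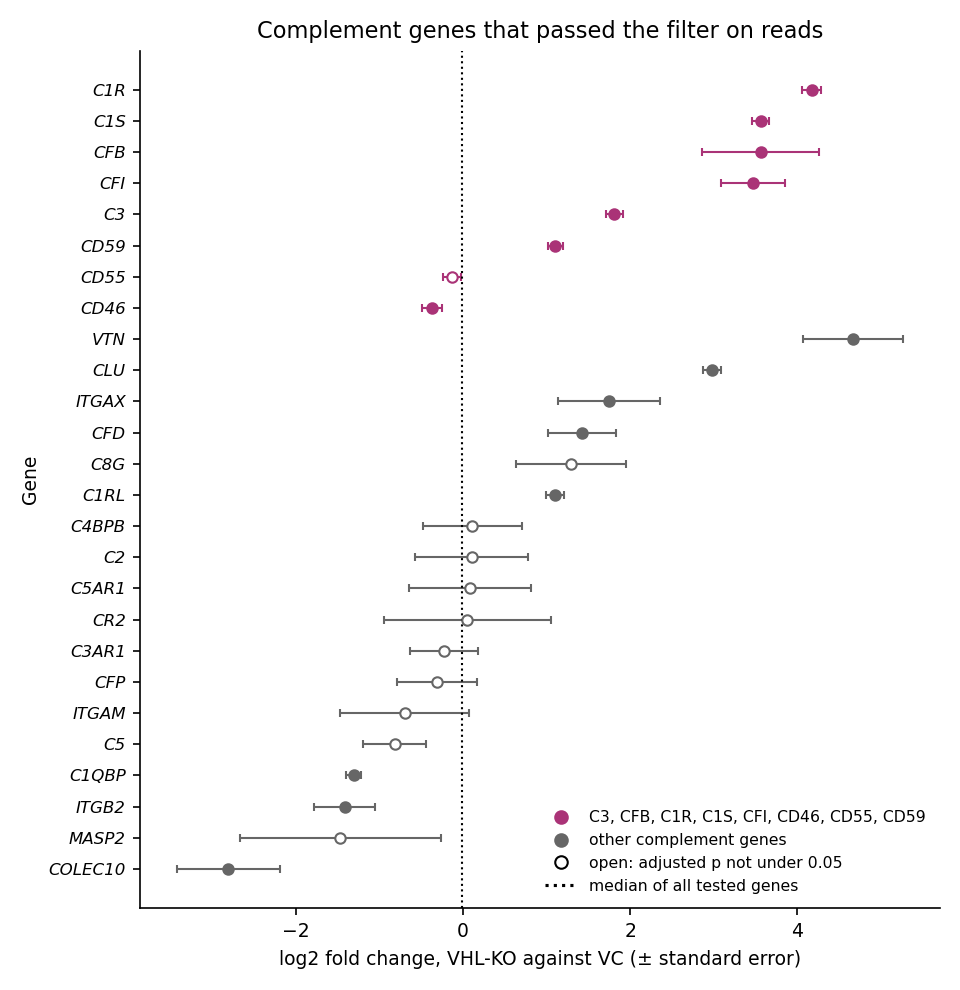
Log2 fold change between VHL-KO and VC cells (± standard error) of the 8 tested genes of the set (purple) and the 18 other tested complement genes (grey). Open circles mark genes whose adjusted p was not under 0.05, and the dotted line is the median of all tested genes at -0.01.

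Profiles over the 6 samples were compared with those of 8438 genes outside the complement lists that had a mean of at least 10 CPM. The likeness was the root mean square difference of centred log2 CPM. The profile of C3 was closest to those of SPINT2 (0.051), LAMB2 (0.069) and MRC2 (0.076), whose log2FC values were 1.77, 1.69 and 1.68. That of C1S was closest to ADM (0.087), ADAM8 (0.102) and ANGPTL4 (0.112), of which ADM rose from 5.81 ± 0.693 to 67.9 ± 4.32 CPM and ANGPTL4 from 19.8 ± 2.24 to 209 ± 12.5 CPM. That of CD55 was closest to MSH3 (0.022), CCT6A (0.028) and SEC22B (0.031). The difference between the groups is part of this measure.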

How the data were processed

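RNA was sequenced from 3 VC and 3 VHL-KO samples of Caki-1 cells, grouped by the labels. The authors trimmed reads with Trim Galore and cutadapt, kept reads of at least 20 nt, aligned them to GRCh38.p13 with STAR, kept uniquely mapped reads with SAMtools and deposited raw counts per gene from HTSeq. Tool versions, annotation release, strandedness and counting mode are not given in the sources used here.

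VHL-KO was compared with VC by the quasi-likelihood F test of edgeR 4.0.16 in R 4.3.3 (TMM factors, a minimum of 10 reads in any sample, two-sided, Benjamini-Hochberg adjustment, threshold 0.05). The test was also run on simulated counts of 16489 genes, with 100 changed by a log2 fold of 1 and 100 by 2. Far fewer genes changed there than were called in these samples, so the simulation does not check the scaling used here. Standard errors are the absolute log2 fold change divided by the square root of F. Positions, exon lengths, GC contents and overlaps came from GENCODE release 44, matched to 17355 tested genes. Replicates differed by more than sampling noise (chi-square per degree of freedom 6.43 to 35.3). The 15 alternatives covered scaling, filters, DESeq2 1.42.0, a replicate block, GC and length offsets (natural splines, 5 degrees of freedom) and each sample left out. Named were the 9 genes, VHL, other complement genes that passed the filter (some of the listed genes are not reported here and enter no count of the lists), and the 3 closest profiles of C3, C1S and CD55. Genes and lists were chosen with earlier results of these data known.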

Additional observations from a re-analysis of the deposited data

How the results depend on the processing

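Over the 15 alternatives, between 9215 and 10501 genes passed the threshold, and 9228 to 10377 with 1 sample left out. Of the 9 complement genes, between 5 and 8 were called, and 6 to 7 with 1 sample left out. C3, C1R, C1S and CD59 kept their direction and call under every alternative. CFB and CFI did so under the 14 in which they were tested, but both entered the test through the VHL-KO samples alone. They were not tested under a minimum of 10 reads in every sample. Without the filter SERPING1 was called too (adjusted p = 0.00317 from edgeR). Of the other complement genes, 8 were called, 4 under a minimum of 10 reads in every sample, where fewer genes are tested, 11 with no filter beyond 1 read, and 7 to 10 with 1 sample left out. With GC and length offsets, CD46 was at 0.15 (0.14 with the replicate block added) and CD55 at 0.30 (0.30), while C2 (-0.05 and -0.01), C3AR1 (0.16 and 0.08) and C5AR1 (-0.02 with the block), not called in any setting, also turned. With library size alone C2 was at -0.10, C4BPB at -0.09, C5AR1 at -0.11 and CR2 at -0.13. With 1 sample left out C2 lay between -0.30 and 0.44, C4BPB between -0.28 and 0.44, C3AR1 between -0.59 and 0.15, C5AR1 between -0.35 and 0.49 and CR2 between -1.39 and 0.48. Around C1R and C1S, ENO2, CLSTN3 and PHB2 kept their direction and call throughout, as did MIR29B2CHG next to CD46, while LPCAT3, not called in any setting, was at 0.01 with relative log expression factors and with DESeq2, 0.10 with upper quartile factors, 0.02 under 10 reads in every sample and between -0.05 and 0.06 with 1 sample left out. The causes were not tested. Samples of the same replicate number shared little deviation (correlations 0.063, 0 and 0.028, beside -0.052 to 0.017 for unlike numbers). With 3 samples per group this does not settle whether they were paired. The replicate block gave 10284 calls, 7 of them among the 9 genes. Genes under about 10 reads per sample carry wide errors at this depth.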
